A study of Mus musculus with 12 samples.

Results

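The genes examined here were 10 of the MHC class I presentation pathway, chosen by name from the 33219 features of the count table by matching Ensembl identifiers to gene symbols. They were the heavy chains H2-K1 and H2-D1, their light chain B2m, the peptide transporter subunits Tap1 and Tap2, the loading factor Tapbp (tapasin), the immunoproteasome subunits Psmb8, Psmb9 and Psmb10, and the transactivator Nlrc5. All 10 were present and passed the filter on low counts.

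MC38, a murine colon cancer cell line of C57BL/6 origin, carried either wild-type RAC1 (RAC1 WT) or a homozygous A159V knock-in at the endogenous locus made by CRISPR-Cas9 (RAC1 A159V). The study presents 1 knock-in clone unless it says otherwise, so the mutation and the clone cannot be told apart. Cells grew subcutaneously in C57BL/6 mice of either sex aged 6 to 8 weeks, which received 100 µg of anti-PD1 or of an IgG isotype control every 3 days from day 3. Tumors were taken on day 13, and tumor cells were isolated magnetically before bulk RNA-seq. The 4 groups were RAC1 WT with IgG, RAC1 WT with anti-PD1, RAC1 A159V with IgG and RAC1 A159V with anti-PD1, with 3 samples in each. The replicate numbers in the labels were 1, 2 and 4 for RAC1 WT with IgG, 1, 2 and 5 for RAC1 A159V with IgG, and 1 to 3 in both anti-PD1 groups.

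Gene counts summed to between 14053582 and 21949942 per sample, so that 3 counts corresponded to 0.137 to 0.213 CPM (counts scaled to a common library size). All members lay far above this floor, and the lowest value of any member in any sample was 56.5 CPM (Psmb9, RAC1 A159V IgG replicate 1). Counting error was therefore small beside the values themselves. Rac1 itself was at 451 ± 55.5 CPM (SD, n = 3) in RAC1 WT IgG and 420 ± 65.1 CPM in RAC1 A159V IgG, and a gene count does not show the base change.

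Library RAC1 WT IgG replicate 1 stood apart. Its mean correlation of log2 CPM with the other samples of its group was 0.969, against 0.989 to 0.990 within both anti-PD1 groups, and its values were lower for genes with longer exons (slope −0.23 per log2 of exon length, against −0.09 to 0.07 in the other 11). RAC1 A159V IgG replicate 5 had the next lowest within-group correlation, 0.972. Values that use the RAC1 WT IgG samples are given below also without replicate 1 where a call or a value changed most. The label calls the cells an adenocarcinoma, but epithelial markers were nearly absent: Epcam had 0 counts in 9 of 12 samples, and Epcam, Krt8, Krt18, Krt19, Cdh1 and Cldn7 together reached 0.817 to 4.29 CPM. MHC class II genes, leukocyte markers and fibroblast markers were all detected, with values set out beside the results.

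In background terms, class I molecules show fragments of the cell's own proteins to CD8+ T cells. Proteasomes cut proteins into peptides, and interferon-γ makes cells replace the constitutive catalytic subunits Psmb5, Psmb6 and Psmb7 with Psmb8, Psmb9 and Psmb10, respectively. The transporter formed by TAP1 and TAP2 carries peptides into the endoplasmic reticulum, where tapasin helps load them onto a heavy chain paired with β2-microglobulin. NLRC5 acts as a transactivator at class I promoters, and IRF1 carries the interferon signal to many of the same genes. Tumor cells that lose this machinery can become invisible to CD8+ T cells.

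Promoters of the members are shown first, because several of these genes are known to be switched on together through short shared elements, and because Tap1 and Psmb9 are transcribed away from one another from a single region. RefSeq promoter windows (GRCm38.p6) of 300 bases, 250 before and 50 from the transcription start, were found for 8 of the 10 members. Letters searched on both strands were GAAANNGAAA for the interferon-stimulated response element (in 3.45% of 32544 promoters), TTCNNNGAA for the interferon-γ activated site (8.33%), CCAAT for the Y box (37.4%), TGACG for the core of the X2 box (20.9%), the NF-κB motif (4.53%) and TTTCNNTTCT, after the interferon consensus sequence of class I genes (3.04%). The last of these was chosen after the promoters had been read. Capitals mark every match, and a match describes letters only, not a site in use. The 5 windows below run 5′ to 3′ on the coding strand of the gene named.
H2-K1, chr17:34000298-34000597, minus strand: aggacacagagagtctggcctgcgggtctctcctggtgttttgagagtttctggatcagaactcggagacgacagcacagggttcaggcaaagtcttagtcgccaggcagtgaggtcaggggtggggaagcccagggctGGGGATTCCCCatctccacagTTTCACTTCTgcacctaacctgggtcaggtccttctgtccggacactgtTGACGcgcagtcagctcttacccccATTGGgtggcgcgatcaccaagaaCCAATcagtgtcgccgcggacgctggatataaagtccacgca
H2-D1, chr17:35262844-35263143, plus strand: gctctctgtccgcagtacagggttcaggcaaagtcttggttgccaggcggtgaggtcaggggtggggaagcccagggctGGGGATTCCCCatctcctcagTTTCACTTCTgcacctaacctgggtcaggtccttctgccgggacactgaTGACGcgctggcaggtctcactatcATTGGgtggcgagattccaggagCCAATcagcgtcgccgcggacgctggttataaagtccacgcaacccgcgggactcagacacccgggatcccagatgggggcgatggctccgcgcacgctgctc
B2m, chr2:122147437-122147736, plus strand: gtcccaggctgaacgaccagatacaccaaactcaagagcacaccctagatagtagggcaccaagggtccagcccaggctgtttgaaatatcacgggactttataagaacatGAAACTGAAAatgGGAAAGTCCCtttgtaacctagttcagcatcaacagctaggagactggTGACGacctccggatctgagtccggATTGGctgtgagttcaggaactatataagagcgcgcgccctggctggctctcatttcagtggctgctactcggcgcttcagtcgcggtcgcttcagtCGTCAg
Tap1, chr17:34187306-34187605, plus strand: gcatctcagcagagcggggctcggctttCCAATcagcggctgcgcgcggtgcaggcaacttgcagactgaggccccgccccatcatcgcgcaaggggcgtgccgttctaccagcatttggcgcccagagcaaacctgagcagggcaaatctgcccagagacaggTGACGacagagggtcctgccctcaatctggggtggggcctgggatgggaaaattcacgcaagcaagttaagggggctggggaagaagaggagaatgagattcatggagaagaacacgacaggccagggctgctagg
Psmb8, chr17:34197945-34198244, plus strand: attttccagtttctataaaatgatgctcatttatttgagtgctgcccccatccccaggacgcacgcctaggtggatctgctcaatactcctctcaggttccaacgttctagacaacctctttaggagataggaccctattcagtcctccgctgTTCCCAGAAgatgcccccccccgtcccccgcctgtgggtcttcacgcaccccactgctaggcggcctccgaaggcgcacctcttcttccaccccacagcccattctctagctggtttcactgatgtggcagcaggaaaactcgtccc

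H2-K1 and H2-D1 carried the same order of matches: the NF-κB motif (2 overlapping matches), TTTCNNTTCT, TGACG, and CCAAT on each strand. B2m held the single GAAANNGAAA match among the 8 members, closely followed by an NF-κB match. Psmb8 held the single TTCNNNGAA match, 97 bases before its RefSeq start. The windows of Psmb8, Psmb9, H2-D1 and Tapbp lie wholly inside the gene spans given below. Their RefSeq starts are thus internal to those spans. The Tap1 window shared 275 bases with the Psmb9 window (chr17:34187281-34187580, minus strand), and the 2 RefSeq starts lay 226 bases apart, so both genes have the same CCAAT and TGACG letters between their starts.

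By position (mm10), 7 of the 10 members lie within the MHC on chromosome 17: Tapbp (33915899 to 33929292), H2-K1 (33996017 to 34000347), Psmb9 (34181987 to 34187764), Tap1 (34187553 to 34197225), Psmb8 (34197721 to 34201454), Tap2 (34203527 to 34216321) and H2-D1 (35262730 to 35267499). B2m is on chromosome 2 (122147686 to 122153083), and Nlrc5 (94434356 to 94527272) and Psmb10 (105935735 to 105938444) are on chromosome 8. Psmb9 and Tap1 share 212 exon bases on opposite strands, which is 5.79% of the exon length of Psmb9 and 3.87% of that of Tap1. Exon bases overlapping an antisense or other RNA gene came to 24.9% for Tapbp (Gm19412), 14.7% for Psmb8 (Gm20496) and 14.1% for Tap2 (Gm15821). The strand setting of the counting is not given in the sources used here, so reads in these stretches are uncertain. Of the 100-base windows of H2-D1, 4.64% recur in other genes, mainly H2-Q1, whereas H2-K1 had none.

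Levels per kilobase of exon ranged widely, with the light chain highest. In RAC1 WT IgG, B2m stood at 2521 ± 622 CPM per kilobase (SD, n = 3), H2-D1 at 1107 ± 126 and H2-K1 at 1074 ± 189. The 2 heavy chains did not differ beyond their spread in that group. Psmb10 (257 ± 112) and Tapbp (209 ± 27.1) came next and also overlapped, followed by Tap1 at 69.9 ± 3.60. Psmb8 (41.8 ± 12.8), Psmb9 (34.4 ± 8.86) and Tap2 (32.0 ± 4.09) overlapped one another, and Nlrc5 was lowest at 19.2 ± 4.41. The order was similar in RAC1 A159V IgG, where B2m stood at 1970 ± 564, H2-D1 at 1013 ± 105 and H2-K1 at 817 ± 116, but Tapbp (224 ± 15.01) there exceeded Psmb10 (166 ± 15.2). With the longest transcript in place of all exons, Psmb8 in RAC1 WT IgG was at 74.1 ± 22.6 per kilobase, above Psmb9 and Tap2. H2-K1 was then above H2-D1, at 1684 ± 297 against 1358 ± 155 in RAC1 WT IgG. In RAC1 A159V IgG they were at 1280 ± 182 and 1243 ± 129. The order of the heavy chains and of the low members therefore depends on the length used.

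**Figure D1:**
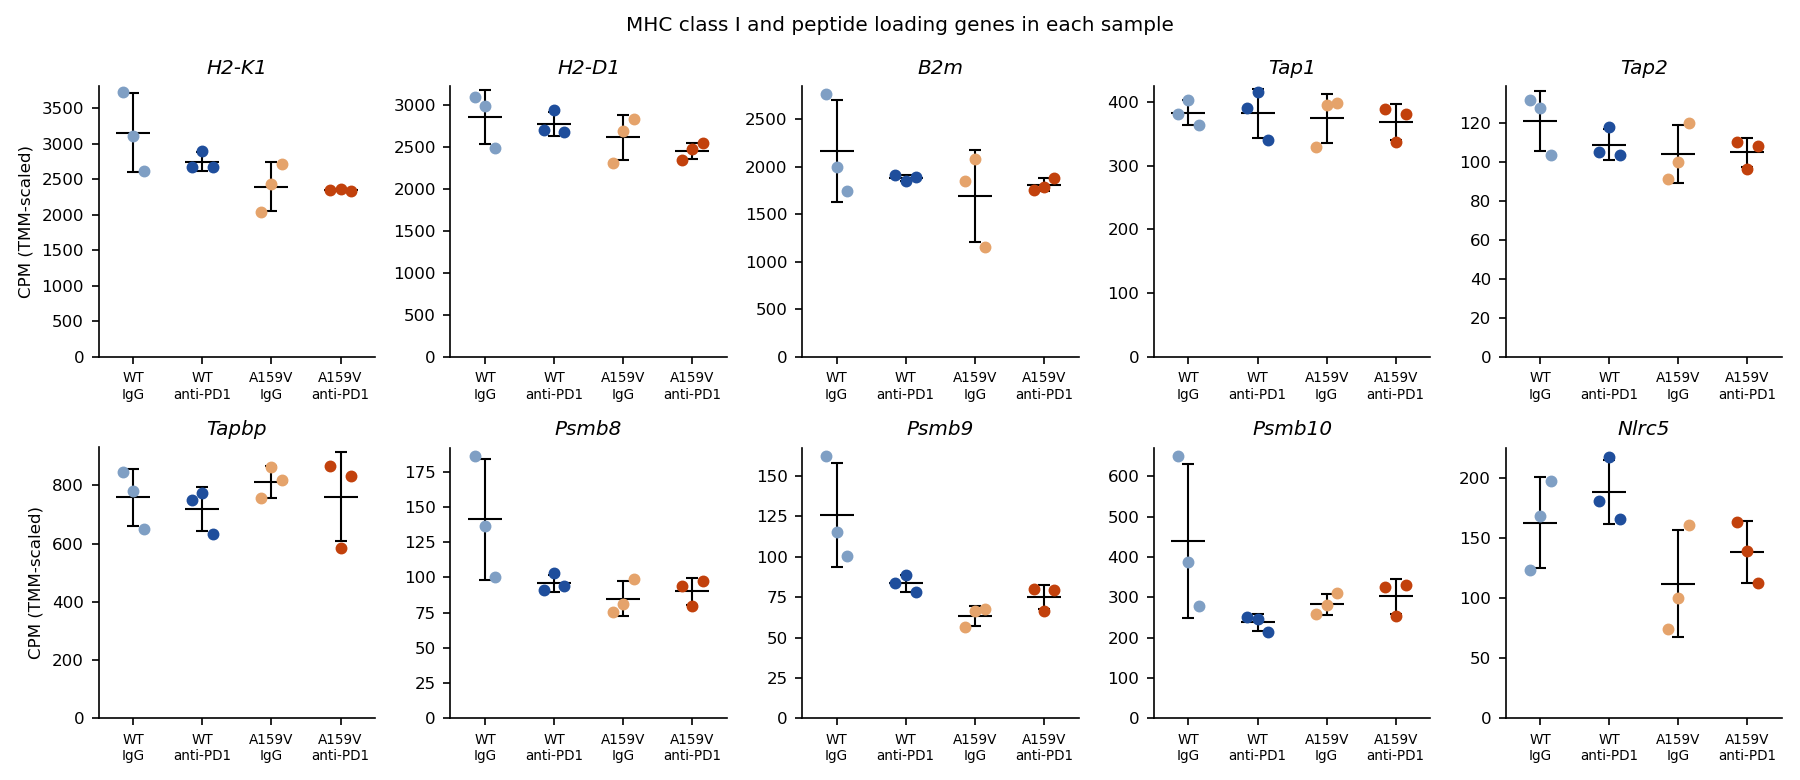
Library-scaled CPM of the 10 genes in each of the 12 samples (points), on linear axes from 0, with mean and SD of each group of 3 (bars). For Psmb9 all RAC1 A159V IgG samples (56.5 to 67.9 CPM) lie below all RAC1 WT IgG samples (100.2 to 162 CPM), whereas Tap1 spans 330 to 415 CPM over all 4 groups.

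The comparison of RAC1 A159V with RAC1 WT under IgG asked whether the mutant tumor cells differ in class I machinery before checkpoint blockade. The immunoproteasome subunits Psmb8 and Psmb9 fell, and no other member passed the threshold in the main model. Other models and left-out samples changed some of these calls, as given below and in the closing section. A call required an adjusted p (edgeR quasi-likelihood test, Benjamini-Hochberg over 14340 genes) under 0.05 and a log2 fold change beyond 0.3 in size. By this rule 2 of 10 members were called lower and 0 higher, where 12.4% of all genes tested were called lower and 28% were called in either direction (2231 higher and 1779 lower, or 1337 higher and 2313 lower with upper-quartile scaling). Of the 10, 9 had a log2 fold change below 0, as did 48.8% of all genes, and 4 had an unadjusted p under 0.05, as did 40.3%. The median of the 10 was −0.38 against 0.02 for all genes. A count of 2 is too small to set the members apart from the background, and what follows describes the size and identity of the changes.

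Psmb9 encodes the subunit that takes the place of the caspase-like Psmb6. It stood at 162, 115 and 100.2 CPM in RAC1 WT IgG and at 56.5, 66.3 and 67.9 CPM in RAC1 A159V IgG. The 2 groups did not overlap, and the highest value belonged to RAC1 WT IgG replicate 1. Psmb9 fell by 0.99 on the log2 scale (SE 0.17, 95% interval −1.35 to −0.62, adjusted p = 0.00143). Without that replicate it still fell, by 0.82 on the log2 scale (adjusted p = 0.00155).

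Psmb8 supplies the chymotrypsin-like activity of the immunoproteasome. Its levels were 187, 137 and 101 CPM in RAC1 WT IgG and 75.3, 81.1 and 98.7 CPM in RAC1 A159V IgG. The groups did not overlap, though the lowest RAC1 WT sample and the highest RAC1 A159V sample were nearly level. Psmb8 fell by 0.73 on the log2 scale (SE 0.19, 95% interval −1.15 to −0.32, adjusted p = 0.0147). Without RAC1 WT IgG replicate 1 the log2 fold change was −0.54 (adjusted p = 0.035). The call was lost without RAC1 A159V IgG replicate 1 (−0.65, adjusted p = 0.0612) or replicate 2 (−0.70, adjusted p = 0.0537).

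Psmb10, the trypsin-like subunit, was at 650, 388 and 278 CPM in RAC1 WT IgG and at 258, 281 and 310 CPM in RAC1 A159V IgG. Its spread within RAC1 WT IgG was the widest of the 3 subunits and the groups overlapped, with a log2 fold change of −0.63 (95% interval −1.15 to −0.11, adjusted p = 0.0671). Leaving out RAC1 WT IgG replicate 1 brought that value to −0.30 (adjusted p = 0.217), whereas Psmb10 was called lower without RAC1 WT IgG replicate 4 (−0.87, adjusted p = 0.00749) or RAC1 A159V IgG replicate 5 (−0.78, adjusted p = 0.0478). Groups did not overlap, with RAC1 A159V lower, for Psmb8 and Psmb9 among the 10 members and for 16% of all genes, and no member was higher without overlap, against 19.8% of all genes.

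Genes of the proteasome activator PA28, which opens the core particle to release peptides, were also called. Of 4 activator genes on a list of pathway genes, Psme1 and Psme2, which encode its interferon-inducible subunits, were called lower. Psme1 was at 537, 342 and 280 CPM in RAC1 WT IgG and at 256, 250 and 275 CPM in RAC1 A159V IgG, without overlap (log2 fold change −0.57, SE 0.19, adjusted p = 0.0416). Psme2 was at 403, 298 and 213 CPM against 188, 194 and 188 CPM, again without overlap (−0.68, SE 0.19, adjusted p = 0.0184). In both genes RAC1 WT IgG replicate 1 was the highest sample. Without it Psme1 was not called (−0.32, adjusted p = 0.0766), whereas Psme2 was (−0.49, adjusted p = 0.0333). Without RAC1 A159V IgG replicate 1 or 2 neither was called, at −0.55 and −0.54 for Psme1 (adjusted p = 0.107 and 0.119) and −0.67 and −0.69 for Psme2 (adjusted p = 0.0571 and 0.0519). Psme3, which encodes a nuclear activator that interferon does not induce, rose instead (0.49, SE 0.13, adjusted p = 0.0157), a call lost without RAC1 A159V IgG replicate 1 (0.41, adjusted p = 0.0691) or 2 (0.47, adjusted p = 0.0554) or RAC1 WT IgG replicate 2 (0.43, adjusted p = 0.0697). Psme4 was at 0.54 (adjusted p = 0.121), or 0.28 without RAC1 WT IgG replicate 1. None of the 3 constitutive catalytic genes and none of 11 further genes of the core particle was called, with medians of −0.07 and −0.20. Both medians changed sign without RAC1 WT IgG replicate 1, to 0.15 and 0.06, again with 0 called.

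**Figure D2:**
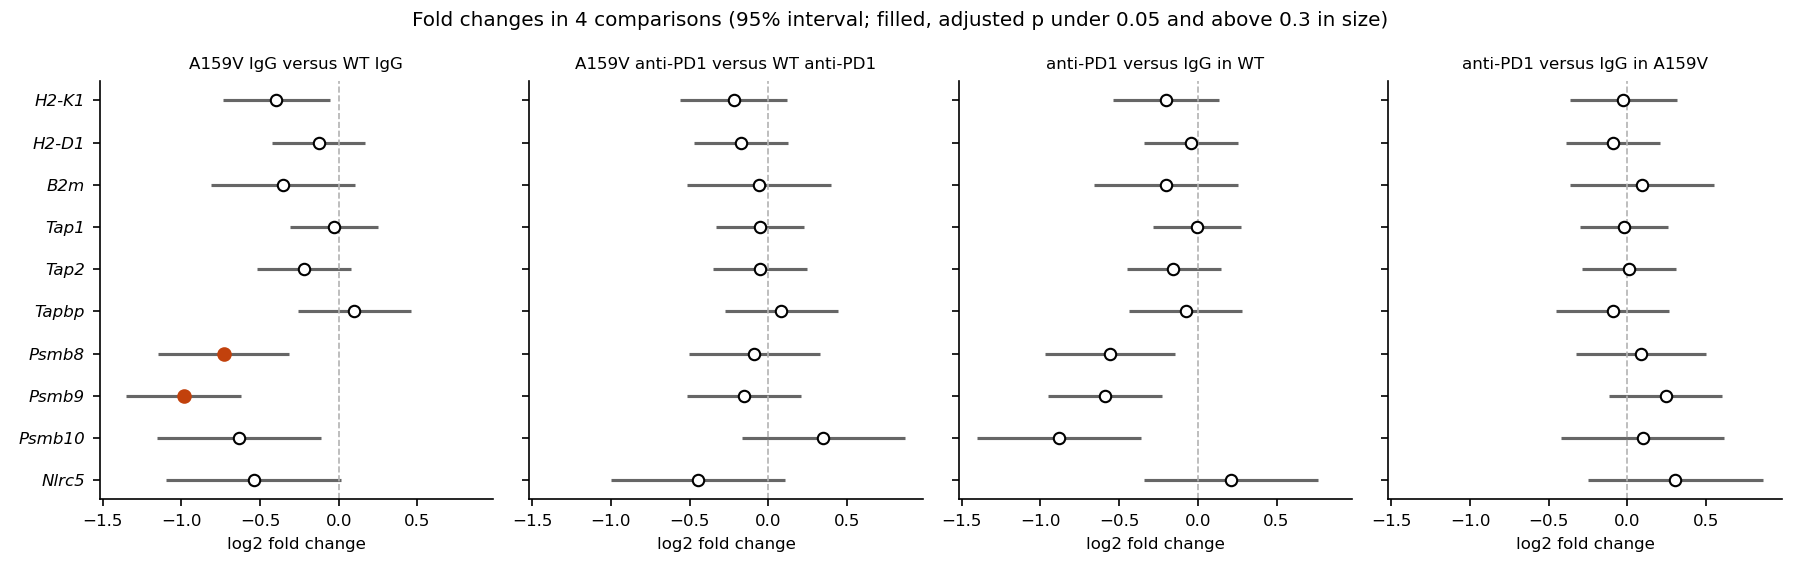
Log2 fold changes of the 10 genes in 4 comparisons, with 95% intervals (lines). Filled points passed the call rule and open points did not; the filled points are Psmb8 (−0.73) and Psmb9 (−0.99) in RAC1 A159V IgG against RAC1 WT IgG.

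With all samples, the peptide transporter and tapasin were not called. Tap1 was at 381, 404 and 364 CPM in RAC1 WT IgG and at 330, 395 and 399 CPM in RAC1 A159V IgG, fully overlapping (log2 fold change −0.03, 95% interval −0.31 to 0.25, adjusted p = 0.871). Tap2 had a log2 fold change of −0.22 (95% interval −0.52 to 0.08, adjusted p = 0.251), and Tapbp one of 0.10 (95% interval −0.26 to 0.46, adjusted p = 0.687). Each interval reaches past the limit of 0.3 in 1 direction. Tap2 was called lower in 1 of the 6 fits with 1 sample left out, that without RAC1 A159V IgG replicate 5 (−0.41, adjusted p = 0.0318).

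Tap1 and Psmb9, are the pair with the shared promoter region shown above. Their log2 ratio is given as a description, since the pair was chosen after its values were seen. The ratio of Psmb9 counts to Tap1 counts was −1.23, −1.81 and −1.86 in RAC1 WT IgG and −2.55, −2.57 and −2.55 in RAC1 A159V IgG. Under anti-PD1 it was −2.22, −2.23 and −2.12 in RAC1 WT and −2.28, −2.35 and −2.26 in RAC1 A159V. RAC1 A159V was lower than RAC1 WT without overlap in each treatment and over all 12 samples. The mean difference was −0.52 on the log2 scale, with −0.92 under IgG and −0.11 under anti-PD1.

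H2-K1, the K heavy chain, was at 3732, 3115 and 2622 CPM in RAC1 WT IgG and at 2040, 2440 and 2717 CPM in RAC1 A159V IgG. The groups overlapped, with a log2 fold change of −0.40 (95% interval −0.73 to −0.06, adjusted p = 0.077). H2-D1 was at 3097, 2984 and 2485 CPM against 2311, 2693 and 2834 CPM, overlapping widely (−0.13, 95% interval −0.43 to 0.17, adjusted p = 0.513). The light chain B2m was at 2768, 1993 and 1742 CPM against 1849, 2082 and 1151 CPM, and the lowest value belonged to RAC1 A159V IgG replicate 5 (−0.36, 95% interval −0.81 to 0.10, adjusted p = 0.228). H2-K1 passed the call rule under other size factors, given in the closing section. Nlrc5 was at 123, 168 and 197 CPM in RAC1 WT IgG and at 74.3, 100.2 and 161 CPM in RAC1 A159V IgG, where replicate 5 was again apart. Its log2 fold change was −0.54 (95% interval −1.10 to 0.01, adjusted p = 0.131). Without RAC1 WT IgG replicate 1 the values were −0.32 for H2-K1 (adjusted p = 0.119), −0.21 for B2m (adjusted p = 0.426) and −0.76 for Nlrc5 (adjusted p = 0.0615), none of them called. Without RAC1 A159V IgG replicate 5, where 32% of all genes were called, Nlrc5 was called lower at −0.97 (adjusted p = 0.0075) and H2-K1 at −0.57 (adjusted p = 0.0218). H2-K1 was also called without RAC1 WT IgG replicate 4 (−0.51, adjusted p = 0.0224). The other end of the range for Nlrc5 was −0.31 (adjusted p = 0.395), without RAC1 A159V IgG replicate 1.

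Because H2-K1 and H2-D1 carry the same order of promoter matches, their log2 count ratio is given as a description chosen after the values were seen. It was 0.27, 0.06 and 0.08 in RAC1 WT IgG, −0.02, −0.02 and −0.01 in RAC1 WT anti-PD1, −0.18, −0.14 and −0.06 in RAC1 A159V IgG, and 0.00, −0.06 and −0.12 in RAC1 A159V anti-PD1. RAC1 WT IgG was the single group with all samples above 0.

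Other class I genes were called where H2-K1 and H2-D1 were not. Of 16 listed genes, 12 were tested, and 5 were called lower and 0 higher under IgG, with a median log2 fold change of −0.32, where 12.4% of all genes were called lower. The count was 6 without RAC1 WT IgG replicate 1, with Mr1 (−0.34 with all samples) at −0.59 (adjusted p = 0.0352). H2-Q4, a non-classical heavy chain of the Q region, was at 294, 304 and 251 CPM in RAC1 WT IgG and at 134, 187 and 210 CPM in RAC1 A159V IgG, without overlap (−0.68, adjusted p = 0.00938). H2-Q6 (−0.62, adjusted p = 0.0241) and H2-Q7 (−0.58, adjusted p = 0.0193), the Qa-2 genes, also fell, as did H2-T22 (−0.40, adjusted p = 0.0231), whose product can be recognised by γδ T cells, and H2-Q10 (−0.67, adjusted p = 0.0489). H2-T24 was at 0.86 (adjusted p = 0.0678), or 0.52 without RAC1 WT IgG replicate 1. With 1 sample left out in turn, H2-Q4 was called in all 6 fits. H2-Q6 (−0.61, adjusted p = 0.0675) and H2-Q7 (−0.58, adjusted p = 0.0545) were not called without RAC1 A159V IgG replicate 1, nor was H2-T22 without that sample (−0.34, adjusted p = 0.0982) or replicate 2 (−0.42, adjusted p = 0.0587). H2-Q10 was called in 2 of the 6 fits, without RAC1 WT IgG replicate 1 (−0.92) or RAC1 A159V IgG replicate 5, and its adjusted p reached 0.161. The Q and T genes resemble one another in sequence, so their individual values are uncertain where reads could be assigned to more than 1 copy.

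Genes for peptide trimming and loading mostly had values above 0. Of 10 listed, 0 were called lower and 1 was called higher under IgG, where 12.4% of all genes were called lower and 15.6% higher. Their median was 0.35, with 8 of 10 above 0, where 48.8% of all genes were below 0. Without RAC1 WT IgG replicate 1 the median was 0.26 and 0 were called. Uggt1, which re-glucosylates unfolded glycoproteins and takes part in class I quality control, was at 143, 216 and 230 CPM in RAC1 WT IgG and at 288, 331 and 273 CPM in RAC1 A159V IgG (0.60, SE 0.17, adjusted p = 0.0198). Its call was lost without RAC1 WT IgG replicate 1 (0.35, adjusted p = 0.0538) or RAC1 A159V IgG replicate 2 (0.52, adjusted p = 0.0768). Erap1, the aminopeptidase that trims peptides in the endoplasmic reticulum, was at 0.50 (adjusted p = 0.155), and the chaperone Canx at 0.52 (adjusted p = 0.0932). Pomp, the assembly factor for new proteasomes, was at −0.39 (adjusted p = 0.204). Erap1 went to 0.31 and Pomp to −0.13 once RAC1 WT IgG replicate 1 was left out.

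Upstream inputs were mixed. None of 8 genes for the NLRC5 enhanceosome (Rfx5, Rfxap, Rfxank, the NF-Y subunits, Creb1 and Atf1) was called under IgG. Of 12 interferon receptor, kinase and factor genes, 3 were called lower and 1 higher. Irf1, the interferon-induced factor that binds class I and immunoproteasome promoters, was at 451, 377 and 363 CPM in RAC1 WT IgG and at 190, 239 and 265 CPM in RAC1 A159V IgG, without overlap (−0.78, SE 0.16, adjusted p = 0.00469). Stat2, which carries type I interferon signals, fell (−0.61, adjusted p = 0.014), and Ifngr1, the ligand-binding chain of the interferon-γ receptor, was at 45.8, 40.9 and 46.3 CPM against 30.6, 32.9 and 31.0 CPM (−0.49, adjusted p = 0.0108). Jak1, the kinase bound to that chain, rose (0.67, adjusted p = 0.0152). Irf1 and Ifngr1 were called whichever sample was left out. Stat2 was not called without RAC1 A159V IgG replicate 1 (−0.50, adjusted p = 0.0648) or 2 (−0.56, adjusted p = 0.0583), nor Jak1 without RAC1 A159V IgG replicate 2 (0.60, adjusted p = 0.0583) or RAC1 WT IgG replicate 2 (0.58, adjusted p = 0.0705). Without RAC1 WT IgG replicate 1, Jak1 was at 0.41 (adjusted p = 0.0406), and Rfx5 (−0.64, adjusted p = 0.0447), Irf2 (−0.40, adjusted p = 0.0274) and Irf9 (−0.34, adjusted p = 0.0397) were called lower as well.

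**Figure D3:**
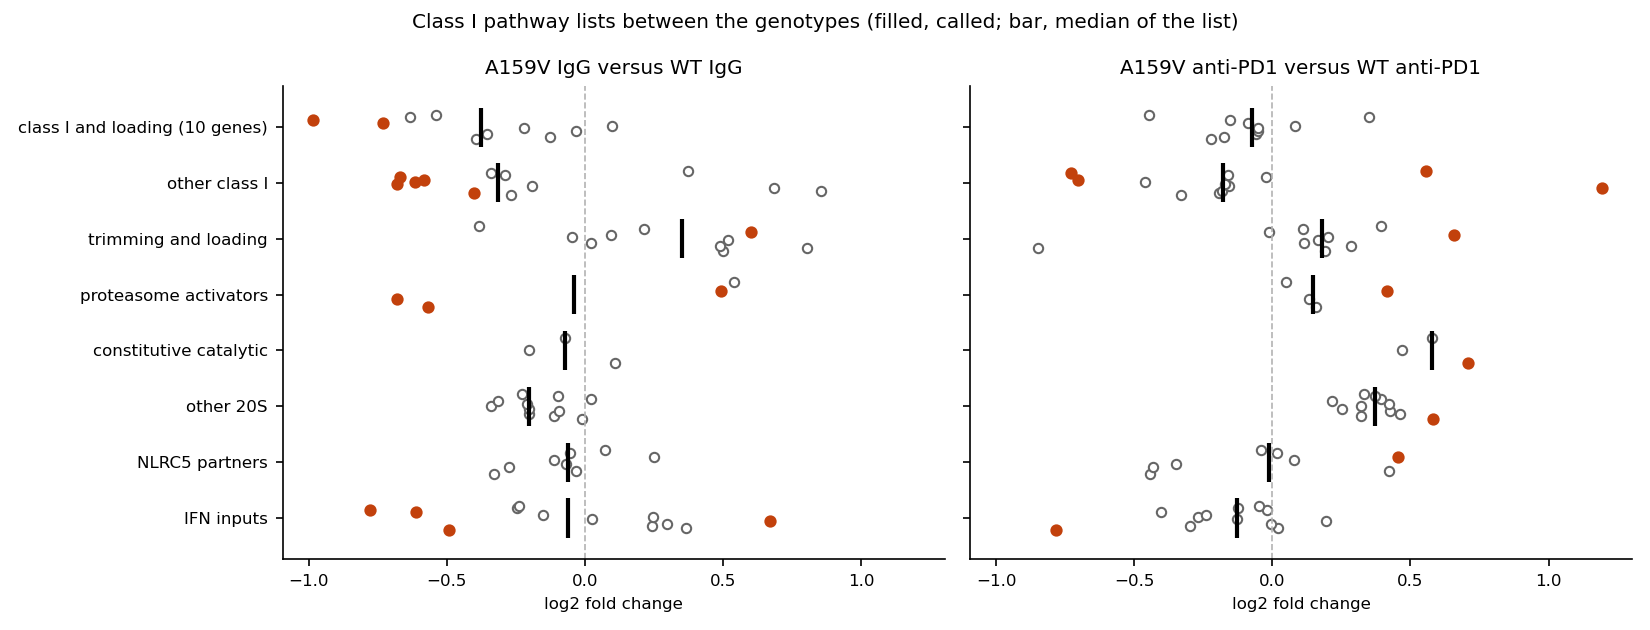
Log2 fold changes of the genes of 8 lists between the genotypes, under IgG (left) and under anti-PD1 (right). Each point is a gene, filled where called, and the bar is the list median, which for the 11 further core particle genes is −0.20 under IgG (0.06 without RAC1 WT IgG replicate 1) and 0.37 under anti-PD1.

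Marker genes of other cell types also differed in the same comparison. Which cells in the samples held their RNA was not tested. The 14 leukocyte markers summed to 20.7, 13.03 and 22.5 CPM in RAC1 WT IgG and to 18.1, 15.1 and 16.4 CPM in RAC1 A159V IgG, and these sums overlapped. In RAC1 A159V IgG most of the sum came from Cd79a (mean 6.15 CPM) and Lyz2 (6.08 CPM), followed by Laptm5 (2.63 CPM). In RAC1 WT IgG the means of Cd79a and Lyz2 were 4.64 and 3.95 CPM. They were the 2 tested markers above 0 (log2 fold changes 0.41 and 0.62), so leaving them out favours a lower sum in RAC1 A159V. Without Cd79a and Lyz2, left out after their values were seen, the sums were 10.7, 4.71 and 15.1 CPM in RAC1 WT IgG and 4.28, 4.37 and 4.30 CPM in RAC1 A159V IgG, without overlap. Of the 11 tested, 5 were called lower (Ptprc, Coro1a, Tyrobp, Fcer1g and Nkg7) and 0 higher, and Fcer1g was the single marker of the 5 called in all 6 fits with 1 sample left out. T cell markers were near 0 under IgG, with Cd3e at 0 counts in 1 RAC1 WT and 2 RAC1 A159V samples and Cd8a likewise. The 6 MHC class II genes, which antigen-presenting cells express and interferon-γ can induce in tumor cells, summed to 323, 129 and 119 CPM in RAC1 WT IgG and to 40.6, 48.0 and 48.7 CPM in RAC1 A159V IgG, led by Cd74. All 6 were called lower (5 without RAC1 WT IgG replicate 1, where Cd74 was at −1.23 with adjusted p = 0.0719). Without RAC1 A159V IgG replicate 1 or 2 the count was 4, since Cd74 (−1.80 and −1.91, adjusted p = 0.062 and 0.0525) and H2-DMa (−0.89 and −0.96, adjusted p = 0.0635 and 0.0535) were not called. The highest sum belonged to RAC1 WT IgG replicate 1, the sample highest for all 3 immunoproteasome subunits. Fibroblast markers, led by Dcn, summed to 547, 294 and 598 CPM against 199, 249 and 179 CPM, and 4 of 6 were called lower. Pdgfra was the 1 of these 6 with a log2 fold change above 0 (0.62, not called).

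With a leukocyte score (the mean log2 CPM of the tested markers) as a term in the model, Psmb9 had a log2 fold change of −0.70 (adjusted p = 0.181) and Psmb8 one of −0.50 (adjusted p = 0.424), and 0 of 10 members were called. In that model 233 genes of all tested were called, against 4010 without the term. The score ran from −0.70 to 0.23 in RAC1 WT IgG and from −1.16 to −0.87 in RAC1 A159V IgG, without overlap. The term therefore takes up part of the genotype difference itself, and the loss of calls cannot separate the 2. The part of other cell types in the class I values was not tested. In such bulk samples, fewer cells of a type and less RNA per cell cannot be told apart.

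**Figure D4:**
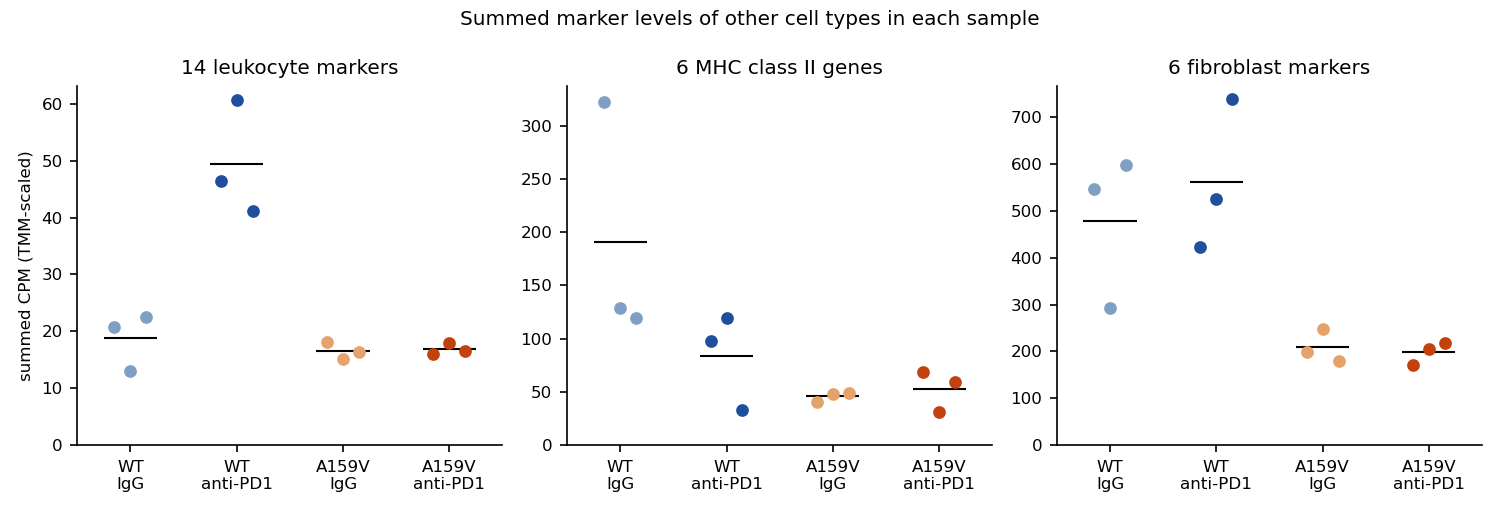
Summed library-scaled CPM of 14 leukocyte markers, 6 MHC class II genes and 6 fibroblast markers in each sample (points), with group means (lines), on linear axes from 0. Leukocyte sums are highest in RAC1 WT anti-PD1 (41.1 to 60.7 CPM) and MHC class II sums are highest in RAC1 WT IgG replicate 1 (323 CPM).

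Under anti-PD1 the same genotype comparison called 0 of 10 members (0 with an unadjusted p under 0.05), where 21.4% of all genes were called (1613 higher and 1462 lower, 10.2% being lower, or 1123 higher and 1672 lower once RLE replaced TMM) and 35.8% had an unadjusted p under 0.05. DESeq2 also called 0 of the 10, where it called 3404 of 14340 genes (23.7%, with 13.6% lower). The members' median log2 fold change was −0.07, against 0.06 for all genes. With 1 sample left out it ran from −0.11 (without RAC1 WT anti-PD1 replicate 3) to −0.02 (without RAC1 A159V anti-PD1 replicate 2). Psmb9 was at 84.1, 88.7 and 78.2 CPM in RAC1 WT and at 79.9, 66.3 and 79.2 CPM in RAC1 A159V, overlapping (log2 fold change −0.16, 95% interval −0.52 to 0.21, adjusted p = 0.547). Psmb8 was at 91.2, 103 and 93.8 CPM against 93.8, 79.4 and 97.5 CPM (−0.09, 95% interval −0.50 to 0.33, adjusted p = 0.777). For Psmb9 all RAC1 WT samples under anti-PD1 lay below every RAC1 WT IgG sample, and for Psmb8 they lay near the lowest of those.

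Some members were separated under anti-PD1 with small differences. H2-K1 was at 2670, 2900 and 2668 CPM in RAC1 WT and at 2356, 2370 and 2341 CPM in RAC1 A159V (log2 fold change −0.22, 95% interval −0.56 to 0.12, adjusted p = 0.336). H2-D1 and Nlrc5 were also lower without overlap, at −0.18 (adjusted p = 0.392) and −0.45 (adjusted p = 0.233). Psmb10 was higher without overlap, at 326, 253 and 329 CPM against 252, 246 and 214 CPM (0.35, 95% interval −0.17 to 0.87, adjusted p = 0.322). Among all genes 23.5% were lower and 32.6% higher without overlap, so 3 and 1 of 10 members are near or under the background. None of these passed the test, and the model shares 1 estimate of spread over all 4 groups. With only the 2 anti-PD1 groups in the model, 2 of 10 members were called lower, namely H2-K1 (−0.30, adjusted p = 0.0187) and Nlrc5 (−0.53, adjusted p = 0.0112), where 38.5% of 13833 genes were called and 21.5% were called lower.

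Around the members, the genotypes differed elsewhere in the pathway under anti-PD1. The constitutive subunit Psmb5 rose, from 68.0, 67.4 and 61.0 CPM in RAC1 WT to 107, 93.4 and 121 CPM in RAC1 A159V (0.71, SE 0.18, adjusted p = 0.0154). Psmb7 (0.58, adjusted p = 0.0513) and Psmb6 (0.47, adjusted p = 0.106) did not pass. Of the 11 further core particle genes all had a value above 0 and 1, Psma1, was called higher (0.58, adjusted p = 0.0454). Psme3 was called higher (0.42, adjusted p = 0.0393), and Psme1 (0.16) and Psme2 (0.13) were not called. Irf1, called lower under IgG, was at −0.02 (adjusted p = 0.949), whereas Ifngr1 was called lower, at 47.5, 47.7 and 57.2 CPM in RAC1 WT and 28.5, 28.1 and 31.8 CPM in RAC1 A159V (−0.79, adjusted p = 0.000925). Of the 12 other class I genes tested, H2-Q7 (−0.70, adjusted p = 0.0087) and Mr1, which presents microbial metabolites (−0.73, adjusted p = 0.0237), were called lower, and Cd1d1, which presents lipids (0.56, adjusted p = 0.0311), and H2-T3 (1.19, adjusted p = 0.0236) were called higher. Tapbpl, the tapasin-related editor, rose (0.66, adjusted p = 0.00967), and of the NLRC5 partners Nfyc rose (0.45, adjusted p = 0.0255). The 14 leukocyte markers summed to 46.5, 60.7 and 41.1 CPM in RAC1 WT against 15.96, 17.9 and 16.6 CPM in RAC1 A159V, and 9 of 11 tested were called lower (8 of these in all 6 fits with 1 sample left out, and Tyrobp in 2 of 6). Fibroblast markers summed to 423, 526 and 739 CPM against 170, 205 and 218 CPM, with 5 of 6 called lower, of which Col1a1 was called in 2 of 6 such fits. Of 4 endothelial markers the 2 tested, Pecam1 (−1.08, adjusted p = 0.0401) and Cdh5 (−0.74, adjusted p = 0.0355), were called lower, in 1 and 0 of the 6 fits. The 6 MHC class II genes were all below 0 (median −0.91). Among them 1, H2-Ab1, was called lower (−2.33), in 2 of the 6 fits. Of 6 epithelial markers the 1 tested, Cdh1, was called lower (−1.61), also in 2 of the 6 fits. With 1 sample left out in turn, Ifngr1 was called in all 6 fits. H2-Q7 was not called without RAC1 A159V anti-PD1 replicate 3 (−0.63, adjusted p = 0.0518), Tapbpl without RAC1 WT anti-PD1 replicate 3 (0.56, adjusted p = 0.0578), and Psmb5 without either of these samples (0.62 and 0.66, adjusted p = 0.0715 and 0.0716). Mr1 and H2-T3 were each called in 1 of the 6 fits, and Cd1d1, Psma1, Psme3 and Nfyc in 0 of 6, with adjusted p from 0.0527 to 0.166. The part of other cell types in the class I values was not tested. With the leukocyte score in the model, 0 of 10 members and 2 of 14340 genes (0.0139%) were called. There 0 of 10 members were below 0, and their median log2 fold change was 0.29 in place of −0.07. H2-K1 was at 0.30, Psmb9 at 0.73 and Psmb10 at 1.44, none of them called. The score ran from 1.46 to 1.93 in RAC1 WT anti-PD1 and from −1.03 to −0.86 in RAC1 A159V anti-PD1. It nearly coincided with genotype, so this model cannot separate the 2, and no conclusion is drawn from the change of sign.

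The effect of anti-PD1 itself was compared within each genotype. In RAC1 WT 0 of 10 members were called, where 0.628% of all genes (90) were called and 27.5% had an unadjusted p under 0.05. DESeq2 called 2 members, Psmb9 and Psmb10, both lower, and 1478 of 14340 genes (10.3%). The 90 calls over all genes became 1 without RAC1 WT IgG replicate 1 and 3458 of 14646 (23.6%) without replicate 4, and leaving out any of the other samples gave 2 to 22. The 3 immunoproteasome subunits were the members with an unadjusted p under 0.05. Psmb10 had a log2 fold change of −0.88 (95% interval −1.41 to −0.36, adjusted p = 0.0766), Psmb9 of −0.59 (95% interval −0.95 to −0.23, adjusted p = 0.0787) and Psmb8 of −0.56 (95% interval −0.97 to −0.14, adjusted p = 0.105). Psmb9 and Psmb10 were lower without overlap, as were 15.8% of all genes. Without RAC1 WT IgG replicate 1 these values were −0.49 (adjusted p = 0.22), −0.37 (adjusted p = 0.234) and −0.31 (adjusted p = 0.405), respectively. The 3 constitutive subunits had a median of −0.62, or −0.34 without RAC1 WT IgG replicate 1, with none called in either case. H2-K1 (−0.20), H2-D1 (−0.04), B2m (−0.20), Tap1 (−0.003) and Nlrc5 (0.21) all had 95% intervals that included 0, and leaving out RAC1 WT IgG replicate 1 brought H2-K1 to −0.07, H2-D1 to 0.01, B2m to 0.005, Tap1 to −0.01 and Nlrc5 to 0.04. Of the 11 leukocyte markers tested 4 rose (Cd8a, Cd3g, Nkg7 and Itgam), each of them called in 1 of the 6 fits with 1 sample left out (that without RAC1 WT IgG replicate 4), whereas the 6 MHC class II genes had a median of −1.26 (−0.65 without RAC1 WT IgG replicate 1) and none called.

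In RAC1 A159V, anti-PD1 called 0 of 10 members by edgeR (0 with an unadjusted p under 0.05), and 0 of all genes, of which 3.63% had an unadjusted p under 0.05. DESeq2 called 2 genes, none of them a member. Member values lay between −0.09 (Tapbp, 95% interval −0.45 to 0.27) and 0.31 (Nlrc5, 95% interval −0.25 to 0.86). With 1 sample left out, Tapbp ran from −0.20 to 0.06 and Nlrc5 from 0.08 to 0.69, neither of them called. Leukocyte sums were 18.1, 15.1 and 16.4 CPM under IgG and 15.96, 17.9 and 16.6 CPM under anti-PD1 in these tumors.

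Whether the effect of anti-PD1 differed between the genotypes was tested as an interaction. It called 0 of 10 members and 1 gene of all (0.00697%), and 3 members had an unadjusted p under 0.05, as did 17.6% of all genes. These were Psmb10 (0.98, 95% interval 0.25 to 1.72, adjusted p = 0.224), Psmb9 (0.83, 95% interval 0.32 to 1.34, adjusted p = 0.185) and Psmb8 (0.65, 95% interval 0.06 to 1.23, adjusted p = 0.26). For all 3 the RAC1 WT IgG samples were the highest of the 4 groups on average. Without RAC1 WT IgG replicate 1 these values were 0.57 (adjusted p = 0.319), 0.60 (adjusted p = 0.225) and 0.38 (adjusted p = 0.49), respectively. DESeq2 also called 0 members, with 295 of 14340 genes called, and without RAC1 WT IgG replicate 4 edgeR called 3 members and 1182 of 14646 genes.

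The balance between immunoproteasome and constitutive proteasome was then measured within each sample as the log2 ratio of counts of each inducible subunit to the subunit it replaces. A ratio within a sample is free of the library scaling, and differences between samples, not its level, are compared. Psmb8/Psmb5 was 0.52, 0.64 and 0.45 in RAC1 WT IgG, 0.42, 0.61 and 0.62 in RAC1 WT anti-PD1, −0.55, −0.27 and −0.11 in RAC1 A159V IgG, and −0.18, −0.23 and −0.31 in RAC1 A159V anti-PD1. Every RAC1 A159V sample was below every RAC1 WT sample, by 0.82 on average (0.566-fold). The p was 0.005 by an exact permutation test within treatments (two-sided, the smallest that 400 arrangements allow), or 0.01 adjusted over the 6 ratio tests.

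Psmb9/Psmb6 was −0.76, −0.58 and −0.55 in RAC1 WT IgG, −0.59, −0.35 and −0.55 in RAC1 WT anti-PD1, −1.58, −1.21 and −1.52 in RAC1 A159V IgG, and −1.04, −1.16 and −1.16 in RAC1 A159V anti-PD1. Again no RAC1 A159V sample reached the RAC1 WT range, with a mean difference of −0.72 (0.609-fold, exact permutation p = 0.005, adjusted p = 0.01). Psmb10/Psmb7 differed by −0.38 (0.770-fold, exact permutation p = 0.005, adjusted p = 0.01), and here the genotypes overlapped, since RAC1 A159V IgG replicate 5 (0.65) exceeded the lowest RAC1 WT sample (0.58). The 3 ratios share samples, and the subunits of a pair are counted in the same libraries.

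Split by treatment, the genotype difference in Psmb8/Psmb5 was −0.85 under IgG and −0.79 under anti-PD1. It was −0.81 and −0.62 for Psmb9/Psmb6 and −0.52 and −0.24 for Psmb10/Psmb7. The 2 sides of the ratio entered these differences unequally. Under IgG, Psmb8 was at −0.73 and Psmb5 at 0.11 between the genotypes, whereas under anti-PD1 Psmb8 was at −0.09 and Psmb5 at 0.71. Likewise Psmb9 was at −0.99 and Psmb6 at −0.20 under IgG, and at −0.16 and 0.47 under anti-PD1. Under IgG the values without RAC1 WT IgG replicate 1 were −0.54 for Psmb8 and 0.32 for Psmb5, and −0.82 for Psmb9 and 0.05 for Psmb6, so the sign of Psmb6 under IgG rested on that sample. Leaving out RAC1 WT IgG replicate 1 left the genotype differences in the 3 ratios at −0.82, −0.75 and −0.34 (adjusted p = 0.015, 0.015 and 0.04 by the exact permutation test).

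The same ratios were compared between anti-PD1 and IgG. Pooled within genotypes, the difference was 0.04 for Psmb8/Psmb5 (exact permutation p = 0.655, adjusted p = 0.655) and −0.09 for Psmb10/Psmb7 (exact permutation p = 0.445, adjusted p = 0.534). For Psmb9/Psmb6 it was 0.23 (exact permutation p = 0.02, adjusted p = 0.03), higher by 0.14 in RAC1 WT and by 0.32 in RAC1 A159V. That call was lost when any of 5 samples was left out, among them RAC1 WT IgG replicate 1 (0.19, adjusted p = 0.0975), or when the mean of the 3 constitutive subunits was the denominator (0.14, adjusted p = 0.112).

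**Figure D5:**
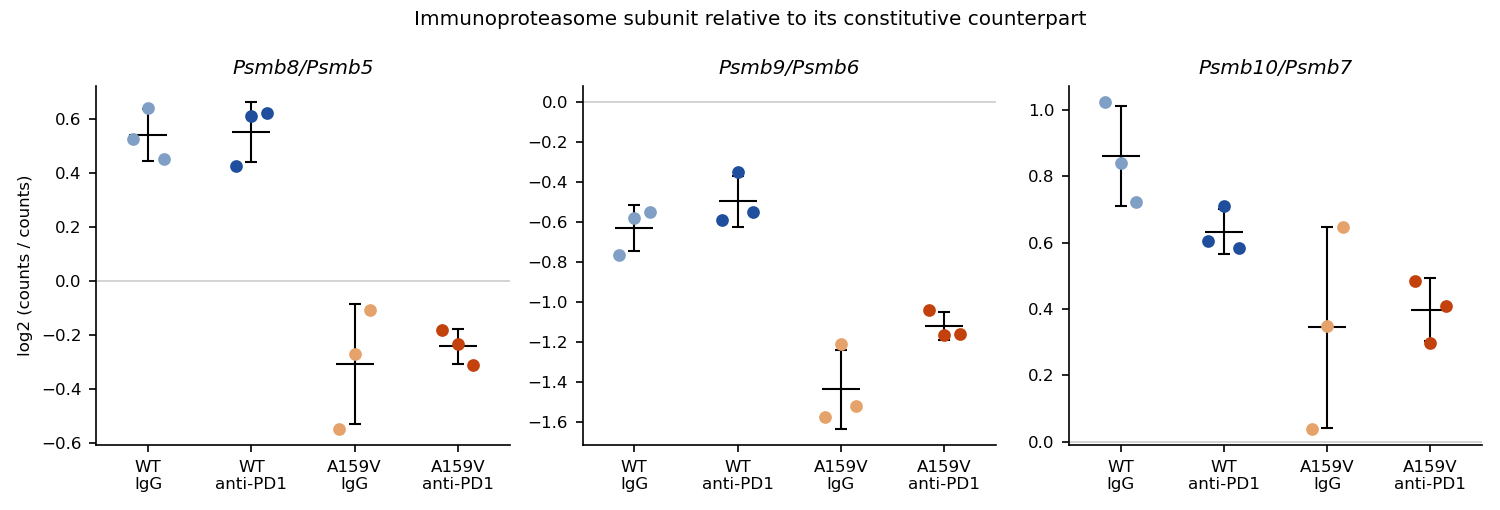
Log2 ratio of the counts of each immunoproteasome subunit to its constitutive counterpart in each sample (points), with mean and SD of each group of 3 (bars). RAC1 A159V samples lie below all RAC1 WT samples for Psmb8/Psmb5 (−0.55 to −0.11 against 0.42 to 0.64) and Psmb9/Psmb6 (−1.58 to −1.04 against −0.76 to −0.35), and overlap them for Psmb10/Psmb7.

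Over the 12 samples the members did not vary as 1 unit. Pearson's r of each member with the mean standardised profile of the 10, given as a description over samples that share libraries and groups, was highest for Tap2 (0.94), Psmb8 (0.94) and H2-K1 (0.93) and lowest for Nlrc5 (0.35), B2m (0.44) and Tapbp (0.47). On deviations from the group means it was highest for Psmb9 (0.94) and lowest for Nlrc5 (0.11) and B2m (0.19), and Tapbp was at 0.80. Each member is part of the profile, which raises its own r, so these values are not comparable with those of outside genes. The profile was highest in RAC1 WT IgG replicate 1 (1.56 in units of SD) and lowest in RAC1 A159V IgG replicate 1 (−1.17). Outside the members, the genes most like the profile were Idnk (0.93), H2-M3 (0.92), H2-DMa (0.92), Pate2 (0.90), Tspo (0.90), Pla2g16 (0.90), H2-T22 (0.89), Avpi1 (0.88), Snhg15 (0.88) and Gm4707 (0.88). H2-M3, which presents formylated peptides, and H2-T22 are class I genes, and H2-DMa loads MHC class II. When likeness was measured on deviations from the group means instead, 2 of the 10 genes remained among the top 10.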

How the data were processed

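Bulk RNA-seq of MC38 tumor cells isolated from 12 tumors was analysed. The authors aligned polyA reads to mm10 with STAR and deposited raw gene counts made with summarizeOverlaps, with neither the annotation release nor the overlap mode given in the sources used here. Identifiers were matched to GENCODE M21, which named 31980 of 33219 features. Counts were tested with edgeR 4.0.16 (TMM scaling, filterByExpr, 4 group means over all 12 samples, glmQLFit and glmQLFTest), which kept 14340 genes. Adjusted p-values are Benjamini-Hochberg over these genes. Values per sample are CPM on TMM-scaled library sizes, and intervals are 95%. Limits on small counts cover counting error only. Log2 ratios of raw counts were compared by exact permutation within strata. Alternatives were limma 3.58.1 with voom, DESeq2 1.42.0, other scalings, filters, samples and covariates. The named genes are the 10 members, Rac1, up to 4 called genes a list and comparison with the largest changes, and the 10 genes most like the members; H2-T22 in the IgG comparison, list genes that were not called and marker genes were named after their values were seen. The members and gene lists were chosen with earlier results of these data known. The gene-wise tests were checked on simulated data. The study gives 3 mice for each group, and the labels give no batches. H2-K2 and H2-T10 were not analysed here.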

Additional observations from a re-analysis of the deposited data

How the results depend on the processing

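Among the 10 members, the number called lower in RAC1 A159V IgG against RAC1 WT IgG was 2 in the analysis as reported. It was 4 with RLE size factors, 4 with upper-quartile normalization and 4 with DESeq2 (26%, 25.5% and 30.2% of all genes called), where Psmb10 and H2-K1 joined Psmb8 and Psmb9. It was 1 with only the 2 groups compared in the model (Psmb9, with 10.3% of all genes called) and 0 with the leukocyte score as a term (1.62%). That score did not overlap between the genotypes under IgG, so this fit cannot separate it from genotype. Leaving out 1 sample at a time gave 1 to 6, with 1 without RAC1 A159V IgG replicate 1 or 2 (18.2% and 17.5% of all genes called), 4 without RAC1 WT IgG replicate 4 (31%) and 6 without RAC1 A159V IgG replicate 5 (32%), where Psmb10, H2-K1, Tap2 and Nlrc5 were also called. Psmb9 kept its call in 14 of 15 alternatives and Psmb8 in 11 of 15. The median of all genes in this comparison moved from 0.02 to −0.06 with RLE and −0.12 with upper-quartile scaling, and that of the members from −0.38 to −0.46 and −0.53. Higher calls among all genes went from 2231 of 4010 to 1680 of 3732 and 1337 of 3650, respectively. Under anti-PD1 the count of members called was 2 with only the 2 groups compared (38.5% of all genes called). For anti-PD1 in RAC1 WT it was 2 with no filter on low counts (771 of 23702 genes called), 2 with DESeq2 (1478 of 14340), and 0 to 3 with 1 sample left out (3 without RAC1 WT IgG replicate 4, where 23.6% of all genes were called). For the interaction it was 0 to 3 with 1 sample left out (3 without RAC1 WT IgG replicate 4, where 8.07% of all genes were called). The anti-PD1 difference in Psmb9/Psmb6 was 0.14 (adjusted p = 0.112) with the mean of the 3 constitutive subunits as denominator and 0.19 to 0.28 with 1 sample left out.

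Samples of different groups that carry the same replicate number come from different mice, and the correlation of their deviations from the group means ran from −0.18 to 0.21 over 13 pairs, so the numbers do not pair the samples. With the replicate number as a block, which leaves RAC1 WT IgG replicate 4 and RAC1 A159V IgG replicate 5 out of the estimate because no other sample shares their number, the count of members called was 6 between the genotypes under IgG, 1 between the genotypes under anti-PD1, 4 for anti-PD1 in RAC1 WT (3 lower and 1 higher), 0 for anti-PD1 in RAC1 A159V and 3 for the interaction. The block raised the calls over all genes too, to 5867 (40.9%), 5018 (35%), 4650 (32.4%), 0 and 2760 (19.2%), respectively. Removing the trend with exon length, an alternative chosen after seeing the data, left 2 members called lower under IgG. In that fit 31.3% of all genes were called and 11.1% were called lower. That step moved the members' median from −0.38 to −0.23, B2m from −0.36 to 0.08, H2-D1 from −0.13 to 0.02 and Psmb10 from −0.63 to −0.35. None of these 3 genes was called. With the leukocyte score as a term, the median of the members under anti-PD1 moved from −0.07 to 0.29, with 0 called. That score nearly coincided with genotype under anti-PD1, so no conclusion is drawn from this change of sign. Of 800 values of single members under the alternatives, 681 kept their direction and their side of the threshold, 37 came to pass it, 5 no longer passed it, and 77 changed sign with neither value called. The lowest count of any member in any sample was 1068, so depth limited the members less than the spread between samples did.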
